A study of Mus musculus with 2 samples.

Results

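The motile cilium and axoneme genes described here are 37 mouse genes, taken as a list: axonemal dyneins, radial spoke and central apparatus proteins, tektins, an assembly factor and the regulators that switch the ciliary programme on, with a few other genes of ciliated cells. A member was any probe whose RefSeq transcript accession mapped to a listed symbol. Of 20886 genes with a probe, 33 of the 37 listed were among them, and 31 were measured on both arrays. No probe mapped to Dnah12, Ccdc40, Dnah7b or Lrrc23, and the probes of Dnah9 and Spag6 were not well above background on either array.

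The study set HSP27 transgenic lung against C57BL6/N lung in bleomycin fibrosis, with 1 Agilent one-colour array per group. Both labels describe males of 6 weeks on the C57BL6/N strain, given 1.25 mg/kg bleomycin into the trachea, with whole lung taken at 14 days. By their labels the groups differ in an HSP27 overexpression transgene, shared the drug and its dose, and had no untreated lung beside them. Sex-linked RNA also differed between the samples, as described below. HSP27 is a small heat shock protein encoded by Hspb1. The labels name neither the promoter nor the species of the transgene, nor whether a sample was 1 animal or a pool. Replicates were not present, so no test was made and every difference below is between these arrays. Their number limits how far any value can be trusted for other animals.

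A motile cilium beats because dynein motors slide its ring of microtubule doublets past one another. Outer arm dyneins set the beat frequency and inner arm dyneins the waveform, while radial spokes, the central apparatus and the nexin complex coordinate the motors. In the lung these cilia are carried by multiciliated cells of the conducting airways, where they move mucus towards the throat. Early in the programme, Mcidas and its partners turn on Foxj1 and work with the RFX transcription factors, whose DNA site is the X-box.

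An X-box was present in the promoters of a few members, and the 5 of them that were measured on both arrays are shown. Sequences are from RefSeq on GRCm38.p6 and run from 250 bases before to 50 bases after the annotated start. They read 5′ to 3′ in the direction of transcription, and the capitals mark the X-box. Dynlrb2, at chr8:116504765-116505064 on the plus strand, encodes a dynein light chain. Hydin, at chr8:110266727-110267026 on the plus strand, encodes a large protein of the central apparatus. Spag16, at chr1:69826720-69827019 on the plus strand, encodes another protein of the central apparatus. Tekt2, at chr4:126325597-126325896 on the minus strand, encodes a tektin of the doublets. Spef2, at chr15:9748819-9749118 on the minus strand, encodes a protein needed for the central pair.
Dynlrb2: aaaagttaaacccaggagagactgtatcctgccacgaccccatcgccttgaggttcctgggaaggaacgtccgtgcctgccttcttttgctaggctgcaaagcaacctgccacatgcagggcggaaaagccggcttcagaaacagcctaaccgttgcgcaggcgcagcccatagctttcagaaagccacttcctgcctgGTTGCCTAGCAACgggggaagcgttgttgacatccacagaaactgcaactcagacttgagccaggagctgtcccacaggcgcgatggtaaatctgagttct
Hydin: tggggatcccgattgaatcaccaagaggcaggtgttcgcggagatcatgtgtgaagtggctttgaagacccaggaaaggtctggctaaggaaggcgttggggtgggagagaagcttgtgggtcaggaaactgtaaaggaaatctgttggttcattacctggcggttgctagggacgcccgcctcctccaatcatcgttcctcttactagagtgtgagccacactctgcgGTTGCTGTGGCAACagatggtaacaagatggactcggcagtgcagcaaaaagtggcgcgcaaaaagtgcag
Spag16: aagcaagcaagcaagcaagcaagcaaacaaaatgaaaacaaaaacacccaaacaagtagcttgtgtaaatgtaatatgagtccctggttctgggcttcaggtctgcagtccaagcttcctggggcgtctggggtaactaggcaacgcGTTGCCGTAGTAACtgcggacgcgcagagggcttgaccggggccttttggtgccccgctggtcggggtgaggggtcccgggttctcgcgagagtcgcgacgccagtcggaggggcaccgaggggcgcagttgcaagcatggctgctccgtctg
Tekt2: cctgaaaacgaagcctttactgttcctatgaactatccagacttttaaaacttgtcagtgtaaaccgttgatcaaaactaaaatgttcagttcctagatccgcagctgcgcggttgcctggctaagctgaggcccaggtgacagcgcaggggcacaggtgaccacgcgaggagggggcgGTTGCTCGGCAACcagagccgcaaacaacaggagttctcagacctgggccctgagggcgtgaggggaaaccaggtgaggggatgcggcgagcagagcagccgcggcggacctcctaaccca
Spef2: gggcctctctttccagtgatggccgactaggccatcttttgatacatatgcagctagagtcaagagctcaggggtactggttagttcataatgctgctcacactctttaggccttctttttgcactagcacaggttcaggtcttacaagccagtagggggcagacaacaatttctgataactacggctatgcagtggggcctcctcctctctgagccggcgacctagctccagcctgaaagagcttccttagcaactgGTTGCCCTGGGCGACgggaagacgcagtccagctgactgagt

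The X-box was searched on both strands in the 33 members with a promoter in the table. Foxj1, Rsph1, Rsph4a and Tppp3 were not in it. The site was found in 6 of 33 (18.2%), against 474 of 27025 genes with a promoter (1.75%). The members were Dynlrb2, Hydin, Spag16, Tekt2, Spef2 and Lrrc23. Counted back from the start, the sites began at base -51 in Dynlrb2, -21 in Hydin, -103 in Spag16, -71 in the Tekt2 window shown and -164 in Lrrc23. The site of Spef2 began at base 9 after the start. In another Tekt2 window, from a different annotated start, the same site began at base -29. A further Tekt2 window held no X-box. The half-site GTTGCC, which overlaps many X-boxes, was present in 60.6% of members and 14.1% of all genes. With 1 mismatch allowed, the X-box was present in 57.6% of members and 12.7% of all genes. The forkhead motif TGTTTAC, of the kind Foxj1 binds, was present in 2 members, Ak7 and Sntn (6.06%), against 4.05% of all genes. A match describes letters in a window and is no evidence of binding. The X-box was also present in 13 of 59 other axoneme genes (22.0%), in 6 of 36 primary cilium genes (16.7%) and in 0 of 16 pan-epithelial genes. Among measured members, the 5 with an X-box had a median log2 difference of 0.25 and the 22 without one 0.40.

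Most of the measured ciliary genes were higher in the transgenic lung, by less than 1.5-fold. More ciliated cells and more ciliary RNA per cell cannot be told apart in whole lung. Differences are log2, transgenic minus C57BL6/N, after each array was scaled by its 75th percentile, and the signals printed are unscaled processed intensities. The median over the 31 was 0.40 (1.32-fold), with quartiles of 0.19 and 0.54 and a range of -0.40 to 1.37. The median of all 15495 measured genes was -0.04, with quartiles of -0.29 and 0.24. Of the 31 members, 25 were above 0, against 46.0% of all measured genes. There were 22 above the upper quartile of all genes and 2 below the lower quartile, Rfx3 and Mcidas. At least 1.5-fold higher were 6 (Dnah1, Cdhr3, Dnah5, Sntn, Ak8 and Rsph1), against 10.2% of all genes. At least 2-fold higher was 1, Dnah1, against 3.81%. No member was 1.5-fold lower, against 8.31% of all genes, nor 2-fold lower, against 1.87%. Of all genes past 1.5-fold, 55.1% were higher with this scaling and 66.5% with cyclic loess. With the pan-epithelial genes described below taken as the zero, the share was 39.0%.

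**Figure D1:**
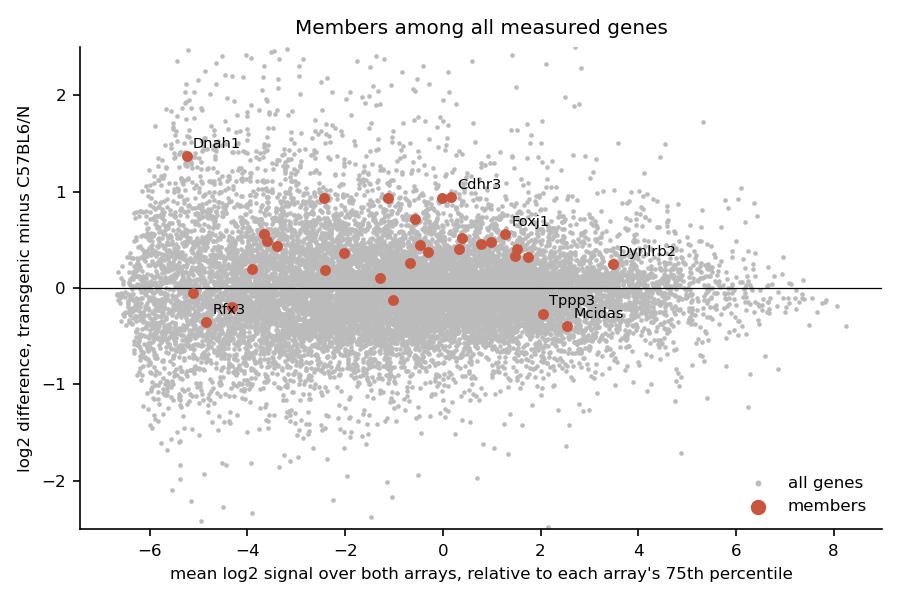
Log2 difference (transgenic minus C57BL6/N) against mean scaled log2 signal for all 15495 measured genes (grey) and the 31 members (red), some of them named. 78 genes lie outside the plotted limits of 2.5 either way, and most members lie above 0 over the whole range of signal.

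The shift was similar over the range of signal. In the dimmest, middle and brightest of 3 equal groups of genes, members had medians of 0.32, 0.40 and 0.37, against -0.02, -0.04 and -0.04 over all genes. Above 0 were 7 of 10, 10 of 11 and 8 of 10 members, against 47.9%, 45.4% and 44.7% of all genes in the same groups. The pooled SD of a difference between single spots of repeated probes was 0.17 for dim, 0.09 for middle and 0.08 for bright probes. The scanner software's error of a member's difference was 0.14 to 0.28, with a median of 0.20. These errors hold no variation between animals.

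Before the members are taken in turn, the sample labelled C57BL6/N matched its label for sex only in part, with both Xist and Y-linked genes read. Both samples are labelled male, yet Xist, expressed from the inactive X, was at 521 and 330 with its 2 probes in the C57BL6/N sample. In the transgenic sample both probes were not well above background (2.83 and 3.36). The Y-linked Ddx3y read 508 for C57BL6/N and 2437 for transgenic, a difference of 2.11. Eif2s3y read 800 for C57BL6/N and 3338 for transgenic (1.91). Uty, with the probe that passed on both arrays, read 17.1 and 72.5 (1.93), and Kdm5d passed background in the transgenic sample alone. Ddx3y, Eif2s3y and Uty were thus well above background in the C57BL6/N sample beside Xist. Whether that sample held RNA of both sexes was not tested. Hspb1 itself read 41040 for C57BL6/N and 53554 for transgenic, 1.18-fold higher. Whether its probe reads the transgene is not known, as the labels do not give its species. The part of the sex-linked difference in the ciliary values was not tested.

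Regulators of the ciliary programme lay on both sides of 0. In each pair of signals from here on the C57BL6/N value comes first. Foxj1, the transcription factor that drives motile ciliogenesis, read 2562 and 4190. That is a difference of 0.56 (1.48-fold), higher than in 89.1% of measured genes. Mcidas, a coactivator of multiciliation, was bright on both arrays at 8601 and 7238 and lay lower (-0.40, 1.32-fold lower). That value rests on 1 probe, brighter than the Foxj1 probe, and whether it reads Mcidas alone was not tested. The neighbour of Mcidas, Ccno, another gene of multiciliation, was at -0.17. Rfx2, a factor of the RFX family, was dim at 68.9 and 66.5 (-0.20). Rfx3, also of that family, had 3 dim probes that pointed in both directions. They read 55.8 and 37.3 (-0.73), 51.4 and 36.6 (-0.64), and 45.2 and 62.3 (0.31), so that the gene value of -0.35 rests on probes that disagree. The median of the 4 regulators was -0.27, with 1 above 0, and it was 0.058 where the brightest probe stood for each gene.

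Genes of the dynein arms, the motors of the axoneme, were higher in all 8 measured cases. Dnah5, an outer arm heavy chain whose loss is a common cause of primary ciliary dyskinesia, read 922 and 1957 (0.94, 1.92-fold). Dnah11, the other outer arm chain measured, read 505 and 602 (0.11), so the outer arm chains differed among themselves. Dnah9, an outer arm chain of the distal cilium, was not well above background at 4.83 and 6.83.

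The 6 measured inner arm genes lay between 0.20 and 1.37, with a median of 0.40. Dnah1, an inner arm heavy chain, had the largest difference of the 31 but a dim probe, at 21.1 and 60.4 (1.37, 2.59-fold). With normexp background correction its difference was 0.43. Dnah2, a heavy chain of the double-headed inner arm, read 801 and 1209 (0.45). Dnah6, a chain of a single-headed inner arm, read 3206 and 4693 (0.40). Dnali1, an inner arm light intermediate chain, read 1408 and 2059 (0.40). These 3 differences lay close together.

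Dnah10, the partner of Dnah2 in the double-headed arm, read 919 and 1316 with its bright probe (0.37). Another probe passed background in the transgenic sample alone, at 4.54 and 15.7. Its bound of 1.19-fold higher (0.25) is smaller than the software's error of that probe's difference (0.85). The last one, at 6.49 and 7.92, passed in neither. Dnah7a, a single-headed inner arm chain, had probes at 139 and 216 (0.49) and at 46.5 and 48.2 (-0.09), a gene value of 0.20. Its last probe was not well above background at 6.20 and 7.19. Dnah7a has close copies in Dnah7b and Dnah7c, whose transcripts these probes could also read. Dynlrb2, a light chain of the roadblock family with roles in cytoplasmic dynein, was bright at 13113 and 17265 (0.25).

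**Figure D2:**
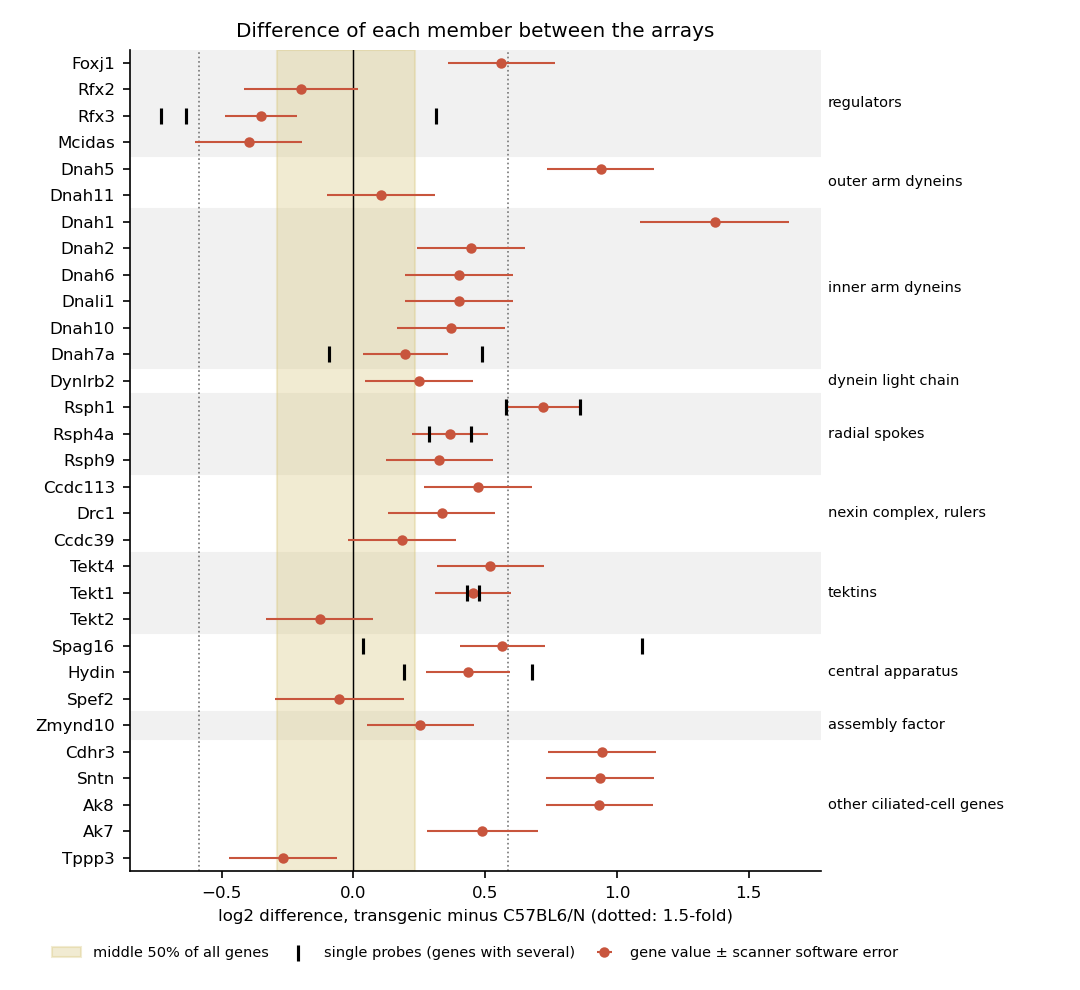
Log2 difference of each of the 31 measured members, grouped by role, with the software's error as bars and single probes as ticks where a gene had several. Shading marks the middle 50% of all genes and dotted lines mark 1.5-fold, and 22 members lie to the right of the shading.

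Radial spoke genes, which link the doublets to the central pair, were higher in all 3 measured. Rsph1, a spoke head protein, read 2122 and 3512 with one probe (0.58) and 213 and 428 with another (0.86), a gene value of 0.72 (1.65-fold). Rsph4a, also of the spoke head, read 306 and 413 (0.29), and 257 and 387 (0.45). Rsph9 read 3862 and 5368 (0.33). Both Rsph1 probes and both Rsph4a probes were on the same side of 0. Lrrc23, a spoke component, had no mapped probe.

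The nexin complex and ruler genes, which space and tie the doublets, were above 0 in all 3 measured, with a median of 0.33. Ccdc113, a coiled-coil protein of the cilium, read 2177 and 3350 (0.47). Drc1, a scaffold subunit of the nexin-dynein complex, read 3199 and 4471 (0.33). Ccdc39, one of the rulers that fix the repeat along the doublet, read 226 and 285 (0.19). The ruler partner Ccdc40 had no mapped probe. Of the tektins, filament proteins within the doublet, Tekt4 read 1416 and 2250 (0.52). Tekt1 read 1605 and 2400 (0.43), and 2246 and 3461 (0.48). Tekt2 read 667 and 676 (-0.13), so after scaling it was not above the C57BL6/N array. The tektins thus split, with Tekt2 apart from the other pair.

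In the central apparatus, the structure at the axis of the cilium, probes of 1 gene differed widely. Spag16 read 162 and 384 with its bright probe (1.09) and 42.9 and 48.8 with a dim one (0.04), a gene value of 0.57. A further probe passed background in the transgenic sample alone, at 11.0 and 49.4. Its bound was 3.73-fold higher (1.90), with a software error of 0.45 for that probe's difference. Hydin read 274 and 486 (0.68), and 40.2 and 50.8 (0.19). Spef2, which is needed for a proper central pair, was dim at 37.6 and 40.2 (-0.05), a value whose sign turned with cyclic loess (0.087), median scaling (0.0018) and quantile normalization (0.00088). Spag6 was not well above background with either probe, at 2.79 and 2.94, and at 4.08 and 8.07. Its paralogue Spag6l was bright at 728 and 1209 (0.58). Where a gene has several probes, the differences described here are those of the probes. The bright Spag16 probe was annotated to a different RefSeq transcript from its other probes. Whether probes of a gene read different isoforms was not tested.

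Zmynd10, an assembly factor that helps build dynein arms in the cytoplasm, read 735 and 971 (0.25). Among the other genes of ciliated cells, 3 had nearly the same difference. Sntn, a protein of the ciliary tip, read 172 and 365 (0.94). Cdhr3, a cadherin of ciliated airway cells that serves as a rhinovirus C receptor in people, read 1035 and 2206 (0.94). Ak8, an adenylate kinase of cilia, read 425 and 900 (0.93, 1.91-fold). Ak7, another ciliary adenylate kinase, read 89.5 and 139 (0.49). Tppp3, a microtubule-binding protein that marks ciliated cells, was bright but went the other way, at 5827 and 5370 (-0.27, 1.20-fold lower).

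Ak8 was the one member printed as 10 spots per array, and so shows the spread of a spot. On the C57BL6/N array the spots ran from 396 to 445, with a median of 427. On the transgenic array they ran from 837 to 944, with a median of 907. After scaling, the means were -1.60 (SD 0.06) and -0.66 (SD 0.07) over 10 spots each, and the ranges, -1.70 to -1.53 and -0.77 to -0.59, did not overlap. The spots are repeats of 1 hybridisation and not of animals.

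**Figure D3:**
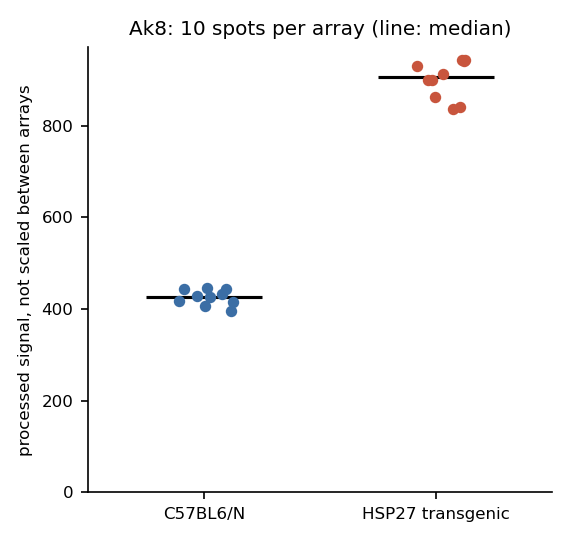
Processed signal of the 10 Ak8 spots on each array, with the median as a line, from 0. The C57BL6/N spots lie between 396 and 445 and the transgenic spots between 837 and 944.

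**Figure D4:**
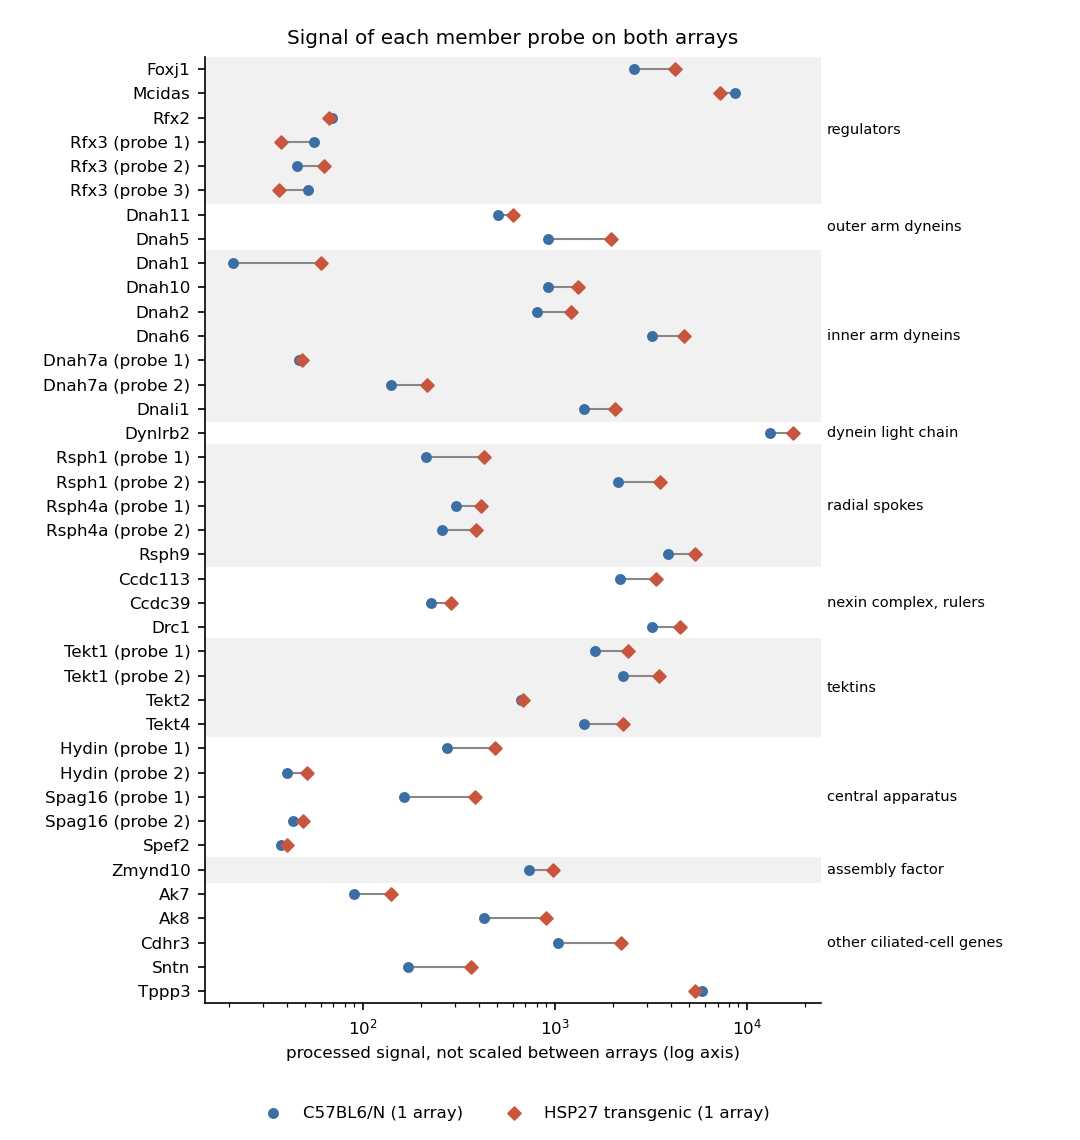
Processed signal of each usable member probe on the C57BL6/N and transgenic arrays, on a log axis, ordered by role. Most pairs lie with the transgenic value to the right, while Tppp3, Mcidas, Rfx2 and probes of Rfx3 lie to the left.

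Other genes of the same structures, listed apart from the members, had a similar median. Of 76 other axoneme genes 61 were measured, with a median of 0.38, and 52 of them were above 0, against 46.0% of all genes. At least 1.5-fold higher were 17 and lower 1, against 10.2% and 8.31% of all genes. The largest were Rsph14 (1.35), Nme9 (1.08), Drc3 (0.88) and Dnaic2 (0.86), and the lowest Dnah8 (-0.93) and Cfap74 (-0.39). Of 36 other genes listed as markers of ciliated cells 32 were measured, with a median of 0.36. At least 1.5-fold higher were 13 and lower 0, against the same 10.2% and 8.31%. The largest of this list were Gsto1 (1.49), Capsl (1.02), Morn5 (0.86) and Calml4 (0.77), and the lowest Cyp4b1 (-0.52) and Sec14l3 (-0.47). How far each listed gene is particular to ciliated cells was not tested. Of the 32, 27 were above 0, against 46.0% of all genes, with Ccdc153 at 0.77, Tmem212 at 0.77 and Cfap126 at 0.60. Odf3b was near 0 (0.05) and Fank1 lower (-0.41). The member Tppp3, which also marks the cell type, was lower as well (-0.27).

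Cilium genes with roles outside the moving axoneme lay nearer to the median of all genes. Of 18 dynein assembly factors 17 were measured, with a median of 0.08, from Cfap300 (-0.76) and Dnaaf2 (-0.53) to Pih1d2 (0.70), Dnaaf3 (0.60), Lrrc6 (0.56) and Ccdc103 (0.54). Of 33 intraflagellar transport genes 32 were measured, with a median of 0.10, from Kifap3 (-0.37) and Kif3a (-0.36) to Dync2li1 (0.86), Ttc26 (0.70), Ift22 (0.61) and Ift20 (0.52). The 39 genes of the primary cilium, the sensory cilium of most cells, had a median of 0.04, from Ptch1 (-0.84) and Invs (-0.41) to Arl3 (0.89), Tctn2 (0.56), Nphp4 (0.53) and Arl6 (0.49). Of 24 other regulators of multiciliation 22 were measured, with a median of -0.17, and 0 passed 1.5-fold either way, where 10.2% of all genes were higher and 8.31% lower. They ran from Ccp110 (-0.50) and Rfx7 (-0.49) to Tfdp1 (0.35), Trp73 (0.28), Foxa1 (0.27) and Myb (0.22). The list also holds genes of wider role, such as Notch1, Jag1, Plk4, Cep63 and Ccp110. Its median is therefore not that of dedicated regulators alone. Deup1, which builds centrioles in multiciliated cells, was at 0.13 and Gmnc, another regulator of multiciliation, at 0.08. The difference between these lists and the members was not tested.

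**Figure D5:**
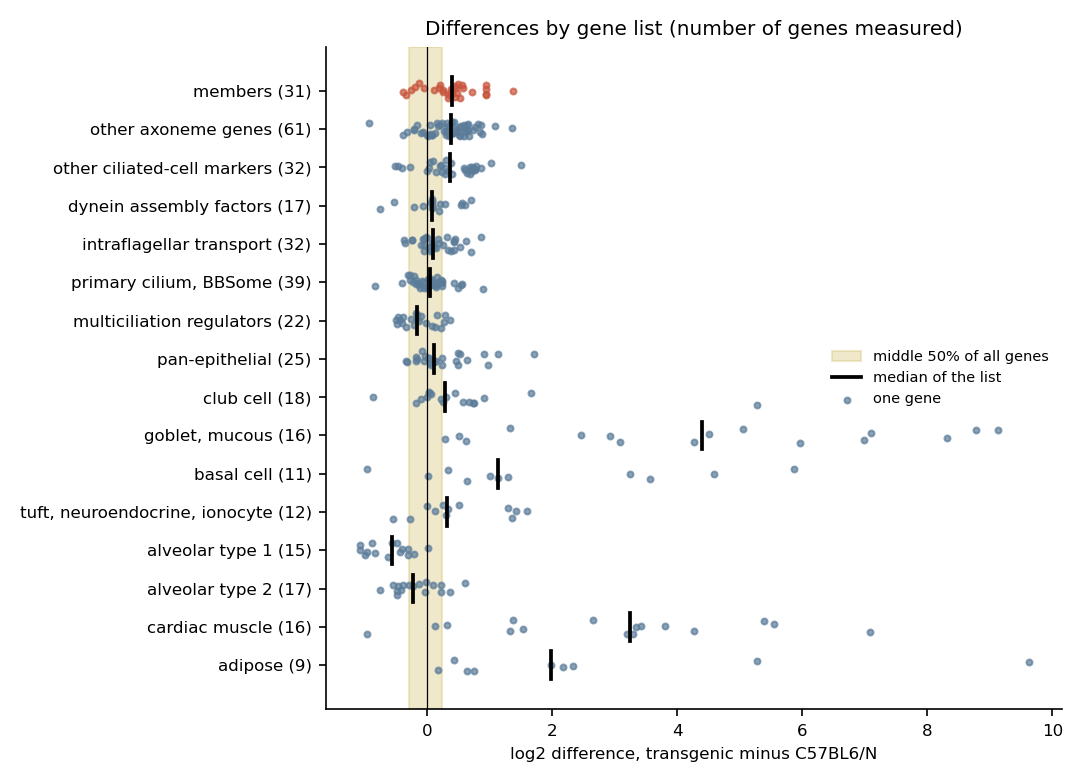
Log2 differences of the measured genes of the members, of other cilium lists and of markers of other cell types, with the median of each list as a line. Members (0.40), other axoneme genes (0.38) and other ciliated markers (0.36) have similar medians, while mucous (4.39), cardiac (3.24) and adipose (1.98) markers lie far above them.

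Markers of other cells of the lung differed too, and are given beside the ciliary values. Summed over members, the level was 42.8 for C57BL6/N and 50.5 for transgenic lung, in units of each array's 75th percentile, a ratio of 1.18. For 26 pan-epithelial genes, of which 25 were measured, the median was 0.10 and the sums 95.3 and 117, a ratio of 1.23. With that median taken as the zero, the members' median was 0.30. By the sums, the members' ratio of 1.18 was below the pan-epithelial 1.23, so the median and the sums order these lists differently. Bright genes weigh most in a sum. Among the members these include Dynlrb2 (0.25), Mcidas (-0.40) and Tppp3 (-0.27), and among the pan-epithelial genes Krt18 (0.48). How far they set the order of the sums was not tested. Of 19 club cell markers, 18 were measured with a median of 0.28 and sums of 787 and 912, with Scgb3a1 at 5.28 and Scgb1a1 at -0.19. Of 19 goblet and mucous markers, 16 were measured, all above 0, with a median of 4.39 and sums of 20.9 and 169, and Muc5b was at 4.27. Of 14 basal cell markers, 11 were measured with a median of 1.13 and sums of 59.3 and 41.9, which point in opposite directions. Krt5 was at 5.87, Krt15 at 4.59 and Itga6, a bright probe within the sum, at -0.97.

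Markers of the alveoli had medians below 0. Of 16 type 1 cell markers, 15 were measured with a median of -0.56 and sums of 322 and 225. Of 18 type 2 cell markers, 17 were measured with a median of -0.23 and sums of 900 and 761, and 5 were above 0, Fabp5 (0.60) and Ctsh (0.36) the highest. Sftpc (-0.40), Abca3 (-0.30) and Lamp3 (-0.47), which define type 2 cells, were measured on both arrays, so the lung label is met. Tuft, neuroendocrine and ionocyte markers had a median of 0.32 over 12 of 18 measured, with sums of 4.09 and 4.37. Markers of heart muscle and fat also differed. Of 22 cardiac muscle markers, 16 were measured with a median of 3.24, sums of 10.1 and 39.9 and Myh6 at 7.09, and 5 more passed background in the transgenic sample alone. Of 14 adipose markers, 9 were measured with a median of 1.98, Cfd at 9.62 and sums of 13.2 and 49.0. Another 4, Adipoq and Plin1 among them, passed background in the transgenic sample alone. The part of these other cell types in the ciliary values was not tested.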

How the data were processed

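The data are 2 one-colour Agilent arrays of whole lung, 1 per group. Per the file headers, the deposited spot values are fluorescence intensity from Feature Extraction 11.5.1.1, background-subtracted and detrended by that software but not normalized between arrays. Flags for well above background, saturation and outliers are other deposited columns, per the file headers. The deposited series table is an intensity too, equal within 0.1% to the processed signal for 39030 single-spot probes on each array (column medians 111 and 118). The labels give Trizol extraction of total RNA and Cy3 as the dye. Both arrays share a slide and a scan.

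Control and outlier spots were left out, and log2 signals were averaged over the spots of a probe and scaled by the 75th percentile of each array (signals of 1287 for C57BL6/N and 1426 for transgenic). Of 39429 probes, 69.3% and 69.4% were well above background, and none was saturated. A probe was usable if at least 50% of its spots on each array were flagged well above background. A gene is the mean of its usable probes, and 24 of the 31 measured members rest on 1 probe. A probe bright on 1 array alone has a bound: its value against the higher of the lowest well-above-background signal (11.9 or 12.5) and its own dim signal. The side of such a bound follows from which array passed, and the bound allows for no error. Probe accessions were named through a RefSeq gene table of GRCm38.p6, which gave 69.8% of probes a symbol. The headers name mm9, so no probe position is given, and promoter coordinates are of GRCm38.p6. The X-box was searched as its RFX consensus with a spacer of up to 3 bases.

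The members, the 15 other lists and the thresholds of 1.5-fold and 2-fold were chosen with earlier results of these data known. The rule for named genes took every member, the 4 largest and 2 lowest of each other list, and genes that check labels or could share a probe. For cell types other than ciliated cells the text gives the list values and single markers. There was no test between groups. On simulated data for the transgenic minus C57BL6/N comparison over 15495 genes, 50 genes at 2-fold came out at a median of 0.98 (log2) and 50 at 1.5-fold at 0.57. Alternatives were median, quantile and cyclic loess scaling, normexp (offset 50), no filter and a stricter filter on dim probes, the brightest or median probe, outlier spots kept, and the series table. Normexp used median signals, as the files hold no mean column, and left out 7 spots. Python 3.11.15, numpy 2.4.6, pandas 2.3.3, matplotlib 3.10.9, R 4.3.3 and limma 3.58.1 were used.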

Additional observations from a re-analysis of the deposited data

How the results depend on the processing

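No paired analysis was possible because each group has 1 array, and for the same reason no replicate could be left out. Over 10 alternatives, the members' median was 0.36 to 0.46, and 29 of 31 members kept their sign, including all 25 above 0. Centred on pan-epithelial genes, chosen after seeing the data, the median was 0.30. The exceptions were Rfx3 (0.31 with the brightest probe) and Spef2 (0.087 with cyclic loess, 0.0018 with median scaling and 0.00088 with quantile normalization). Members at least 1.5-fold higher (6) were 9 with cyclic loess, 8 with median scaling, quantile normalization or no filter, 7 with the brightest probe and 6 with the others. The number at least 2-fold higher was 3 with cyclic loess, 0 with normexp, 2 without the filter and 2 with the brightest probe. With the median of probes, 1 member (Rfx3, -0.61) was at least 1.5-fold lower. With cyclic loess, medians were -0.13 for regulators, 0.55 for the central apparatus, 0.21 for assembly factors, 0.14 for primary cilium genes, 1.24 for basal, 0.42 for tuft, neuroendocrine and ionocyte, and 3.33 for cardiac markers. With normexp they were -0.18 for regulators, 0.32 for the central apparatus, 0.77 for other ciliated members, 3.52 for goblet, 0.77 for basal, 0.18 for tuft, neuroendocrine and ionocyte, 2.38 for cardiac and 1.71 for adipose markers. Without the filter they were 0.35 for outer arm dyneins, 3.90 for goblet, 3.33 for cardiac and 2.25 for adipose markers. With the brightest probe they were 0.058 for regulators and 0.68 for the central apparatus, and type 2 cells were at -0.11 with quantile normalization. Members with an X-box were 57.6% with 1 mismatch and 60.6% by the half-site. The cause of these shifts was not tested. The stricter filter left 15489 of 15495 genes and changed no member value. Keeping outlier spots, or using the series table, moved the median of all genes by -0.0008. Taking the brightest or median probe could not move the 24 members with 1 usable probe. For most members these settings therefore put the sign to little test. Dim probes such as those of Dnah1, Rfx2, Rfx3 and Spef2 limit their own values.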

Other observations

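In the gene table, the spans of 7 members overlap another protein-coding gene, and in 5 of these pairs both genes were measured. Ak8 (0.93) overlaps Spaca9 (0.58), and Rsph9 (0.33) overlaps Mrps18a (0.19). Dnali1 (0.40) overlaps Gnl2 (0.07), Dnah11 (0.11) overlaps Cdca7l (-0.43), and Ccdc39 (0.19) overlaps Ttc14 (-0.77). Whether a probe reads both genes of a pair was not tested.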
